A study of Mus musculus with 54 samples.

Results

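A set of 6 genes with low liver values after the highest dose of di-isononyl phthalate (DINP), a phthalate plasticizer, were followed through every mouse of a feeding study: Serpina12, Ntrk2, Mmd2, Atp2b2, Ccne2 and Fst. They were chosen by name, on their measured values at 150 mg/kg bw/d in these same mice, and are 6 of the 20162 rows of the expression table. All 6 are among the 11431 rows tested, those that averaged 1 or more over the mice. All male C57BL/6J mice carried the wild-type genotype, were housed singly, and received a high-fat diet from 8 weeks of age together with a daily flavoured gelatin pellet for 20 weeks. The pellet held no DINP for 14 control mice, 1.5 mg/kg bw/d for 13 mice (DINP 1.5), 15 mg/kg bw/d for 13 mice (DINP 15) and 150 mg/kg bw/d for 14 mice (DINP 150). No group on a standard diet was analysed here. RNA came from the medial liver lobe and was read from the 3′ ends of transcripts. Values are TPM, transcript abundances per library and per transcript length, that were first rounded to whole numbers. Each sample was then divided by a scaling factor of its own, and the results are called scaled TPM here.

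The 6 genes belong to different systems. Serpina12 encodes vaspin, a secreted serine protease inhibitor first described in visceral fat of obese rats and linked to insulin sensitivity. Fst encodes follistatin, a secreted glycoprotein that binds and neutralises activins and is made and released by the liver. Ntrk2 encodes TrkB, the receptor tyrosine kinase for brain-derived neurotrophic factor, and is best known from neurons. Mmd2 is a multi-pass membrane protein of the progestin and adipoQ receptor family. Atp2b2 encodes a plasma membrane calcium pump that exports calcium from the cell. Ccne2 encodes cyclin E2, which activates CDK2 at entry into DNA replication.

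In the GENCODE M21 annotation of GRCm38 all 6 are protein-coding genes. Serpina12 lies on chromosome 12 (104028769 to 104044443, minus strand), Mmd2 on chromosome 5 (142562358 to 142608800, minus strand), and Atp2b2 on chromosome 6 (113743831 to 114042613, minus strand). Ccne2 lies on chromosome 4 (11191351 to 11204779, plus strand) and overlaps Ints8, a protein-coding gene of the opposite strand. Whether reads were counted by strand is not given in the sources used here, so reads of overlapping genes are uncertain. Ntrk2 (58806569 to 59133970, plus strand) and Fst (114452290 to 114458951, minus strand) both lie on chromosome 13, far apart, and like Atp2b2 they overlap antisense transcripts.

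Promoter windows of 300 bases, from 250 before to 50 after the annotated start, were available from RefSeq (GRCm38.p6) for 4 of the 6 genes. Those of Ntrk2 and Mmd2 are shown because these genes varied together from mouse to mouse, and that of Serpina12 because its difference at 150 mg/kg bw/d was the largest of the 6 on the log2(scaled TPM + 1) scale used below, though not as a ratio of means. Capitals mark matches to any of 7 motifs searched on both strands: CACGTG (the E-box), GTAAACA (FoxO), TGACTCA (AP-1), AGGTCA (the nuclear receptor half-site), TATAAA (the TATA box), CCAAT (the CCAAT box) and GCGGGAA (E2F). No motif contains another.
Ntrk2 (chr13:58806319-58806618, plus strand): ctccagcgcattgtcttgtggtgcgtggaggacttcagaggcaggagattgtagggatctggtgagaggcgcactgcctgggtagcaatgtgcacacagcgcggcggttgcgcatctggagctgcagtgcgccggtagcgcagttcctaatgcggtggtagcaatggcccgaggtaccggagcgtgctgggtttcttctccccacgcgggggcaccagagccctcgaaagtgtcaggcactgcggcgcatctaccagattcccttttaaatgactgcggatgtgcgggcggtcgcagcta
Mmd2 (chr5:142608703-142609002, minus strand): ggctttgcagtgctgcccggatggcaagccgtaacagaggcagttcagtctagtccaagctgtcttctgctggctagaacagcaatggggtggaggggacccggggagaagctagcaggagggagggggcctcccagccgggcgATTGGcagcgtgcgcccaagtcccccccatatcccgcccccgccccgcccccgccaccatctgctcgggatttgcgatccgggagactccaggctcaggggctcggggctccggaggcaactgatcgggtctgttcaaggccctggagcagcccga
Serpina12 (chr12:104044394-104044693, minus strand): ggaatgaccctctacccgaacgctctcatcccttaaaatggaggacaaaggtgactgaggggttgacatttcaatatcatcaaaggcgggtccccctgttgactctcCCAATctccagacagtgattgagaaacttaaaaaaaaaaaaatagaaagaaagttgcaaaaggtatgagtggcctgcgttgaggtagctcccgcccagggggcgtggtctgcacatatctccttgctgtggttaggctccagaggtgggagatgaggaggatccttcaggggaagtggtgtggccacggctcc
The CCAAT box stood in the Mmd2 window on the reverse strand, its first base 106 before the start, and in the Serpina12 window 143 before the start. The Ntrk2 window and the 3 Atp2b2 windows held none of the 7 motifs. CCAAT occurred in 37.4% of all 32851 windows, and the other motifs in 3.65% (FoxO) to 16.3% (the half-site). A match in these letters is a description of the sequence and not of binding. GC content was 61.3% in the Ntrk2 window, 67% in that of Mmd2 and 51% in that of Serpina12, beside a median of 52.7% over all windows.

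Whole TPM totals ran from 948342 to 980641 per mouse. TPM are set to an equal total in every library, so near-equal totals are no measure of library quality. After the deposited scaling 1 whole TPM was worth 0.764 to 1.11. Its median was 0.991 in control, 0.992 in DINP 1.5, 1 in DINP 15 and 1.04 in DINP 150. Sequencing depth is unknown. The hepatocyte marker list (7 of 7 genes in the table, none at 0 in any mouse) summed to medians of 41469 in control and 41934 in DINP 150, and albumin averaged 19797. In 7 mice the summed stellate cell and fibroblast markers (8 genes) lay between 241 and 408, above every DINP 150 mouse (133 to 210). These were 2 control, 4 DINP 1.5 and 1 DINP 15 mice, and values that rest on them are given with and without them below. Decorin (Dcn) averaged 147 over all mice and no other gene of the 8 above 13.9, so this sum is mostly Dcn.

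The 2 genes of secreted proteins had the highest scaled TPM of the set. TPM are taken per transcript length while the reads came from 3′ ends, so levels of different genes may not be comparable. Serpina12 ranged from 4.42 to 35.2 scaled TPM in control (median 20.5), from 13.4 to 32.3 in DINP 1.5 (median 24.1) and from 10.7 to 34.1 in DINP 15 (median 16.3). In DINP 150 it ranged from 2.14 to 20.7, with a median of 7.79. Of the 14 high-dose mice, 13 lay below the control median and 3 lay below the lowest control mouse, so the groups overlapped at their edges. The mean was 20.5 ± 7.88 (SD, n = 14) in control and 8.22 ± 4.84 (SD, n = 14) in DINP 150, 2.5-fold lower.

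Fst ranged from 4.94 to 33.4 scaled TPM in control (median 14.2), from 4.77 to 29.2 in DINP 1.5 (median 15.2) and from 1.99 to 25.7 in DINP 15 (median 13.2). In DINP 150 the range narrowed to 1.94 to 12.3 around a median of 7.9. All 14 high-dose mice were below the control median, while 8 of the 14 control mice lay above the highest high-dose mouse. The means were 16.1 ± 9.64 (SD, n = 14) and 7.46 ± 2.88 (SD, n = 14). Fst varied more among control mice (SD 0.597 of the mean) than Serpina12 (0.384).

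Ntrk2, the neurotrophin receptor, was near the lower limit of the table and is best read in whole TPM before scaling. In control 6 mice had 1 TPM, 6 had 2 and 2 had 3 or more, and none had 0. In DINP 150, 9 mice were listed at 0 and 5 at 1 TPM, so that no mouse reached 2. In DINP 1.5 3 mice were listed at 0 and 5 had 2 or more, and in DINP 15 1 was listed at 0 and 9 had 2 or more. On the scaled values the highest mice reached 6.12 in control, 2.79 in DINP 1.5, 7.09 in DINP 15 and 1.05 in DINP 150. The control and DINP 150 groups met at 1 TPM.

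Mmd2, the membrane protein, had 3 or more TPM in 13 of 14 control mice. In DINP 150 2 mice were listed at 0, 8 had 1 TPM, 2 had 2 and 2 had 3 or more. On the scaled values Mmd2 ranged from 1.92 to 7.07 in control (median 3.93), 0.981 to 6.26 in DINP 1.5 (median 2.02), 1.02 to 6.2 in DINP 15 (median 2.98) and 0 to 4.22 in DINP 150 (median 1.04). Of the 14 high-dose mice, 10 lay below the lowest control mouse. The DINP 1.5 mice fell into a low set of 9, at 0.981 to 2.06, and a high set of 4, at 4.48 to 6.26, and the 4 high ones were those with the high stellate cell and fibroblast markers.

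Atp2b2, the calcium pump, had 1 TPM in 7 control mice, 2 in 5 and 3 in 2. In DINP 150 7 mice were listed at 0 and 7 at 1 TPM, with none higher. The other dose groups lay between, with 5 of 13 mice at 2 or more in DINP 1.5 and 2 of 13 in DINP 15. For a gene at this level the rounding is as large as the difference between neighbouring mice.

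Ccne2, the S-phase cyclin, ranged from 1.01 to 7.14 scaled TPM in control (median 3.96), 1.01 to 6.26 in DINP 1.5 (median 3.81), 0.994 to 8.18 in DINP 15 (median 2.85) and 0 to 4.18 in DINP 150 (median 1.04). In DINP 150 3 mice were listed at 0 and 5 of 14 had 2 TPM or more, against 12 of 14 in control. The ranges overlapped, with 5 high-dose mice below the lowest control mouse (2 of them by the scaling alone, at 1 TPM like it) and 6 control mice above the highest high-dose mouse.

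**Figure D1:**
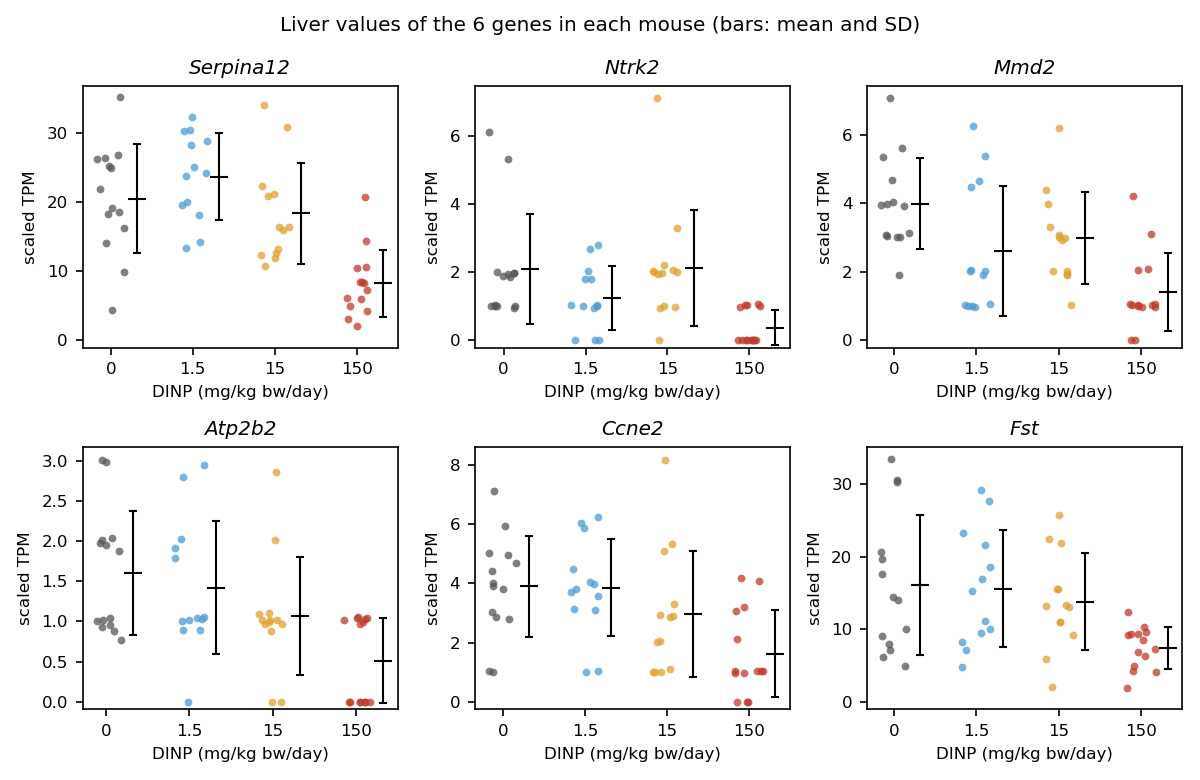
Scaled TPM (vertical axis) of each gene in each mouse, by DINP dose in mg/kg bw/d (horizontal axis; 14, 13, 13 and 14 mice). Points are mice and black bars the mean and SD; the 150 mg/kg bw/d mice sit low in all 6 panels, the choice of the genes having used these values, and every pair of groups overlaps.

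**Figure D2:**
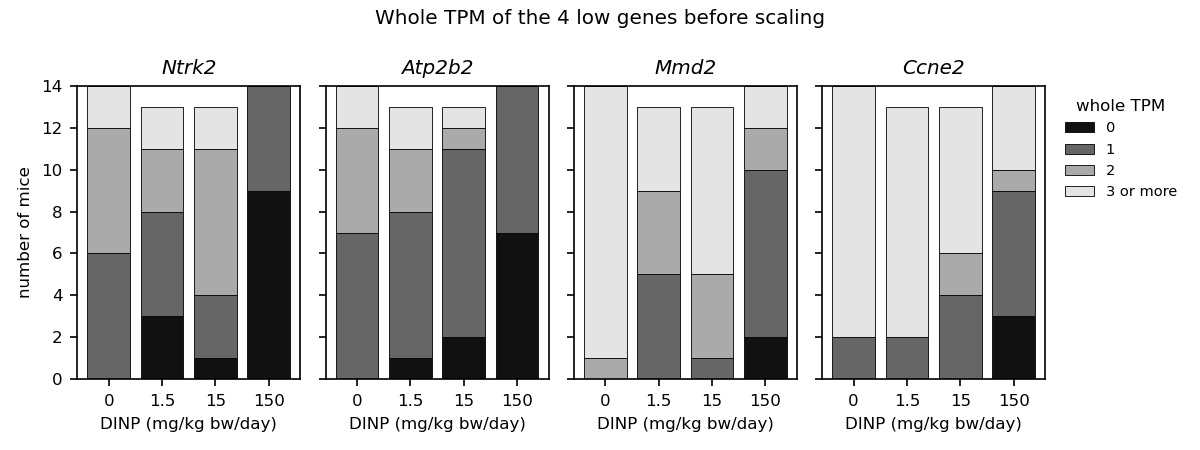
Number of mice (vertical axis) at 0, 1, 2 and 3 or more whole TPM for the 4 genes of low level, by DINP dose (horizontal axis). Of 14 high-dose mice, 9 were listed at 0 for Ntrk2 and 7 of 14 for Atp2b2, and no control mouse was at 0 for any of the 4.

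Read mouse by mouse, the low values came together in the high-dose group. Of the 14 DINP 150 mice, 10 had all 6 genes below the control median and the other 4 had 5. In control the number per mouse ran from 0 to 5 (median 3), in DINP 1.5 from 1 to 6 (median 3) and in DINP 15 from 2 to 6 (median 4). A single mouse each of DINP 1.5 and DINP 15 had all 6 low. This count follows from how the genes were chosen and carries no test.

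On the log2(scaled TPM + 1) scale the DINP 150 minus control difference was -1.27 for Serpina12, -1.14 for Mmd2, -1.13 for Ntrk2, -1.02 for Ccne2, -0.90 for Fst and -0.82 for Atp2b2. These differences chose the genes and are given without a test. The added 1 makes the changes of the low genes look smaller than they are. A call needed an adjusted p below 0.05 (limma, Benjamini-Hochberg over all 11431 rows) and a difference beyond 0.5. At 150 mg/kg bw/d 22 rows, or 0.192%, were called lower, and 5 of the 6 genes were among them, all but Fst, a count that follows from the choice and from which nothing is read. The 6 were not simply the largest decreases. By size they stood at places 4, 6, 9, 13, 24 and 31 of all tested rows. Apoa4, an intestinal and hepatic apolipoprotein, led with -1.79 (412 scaled TPM in control, 136 in DINP 150). Among the called rows Gm35986 (-0.91) came between Ccne2 and Atp2b2, and Gstp3 (-0.81), a glutathione transferase, came directly after Atp2b2.

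The means compared between DINP 15 and DINP 1.5 used neither the control nor the high-dose mice, which chose the genes, while the spread was estimated over all 54 mice. With those groups fitted alone the number called was the same. None of the 6 passed (limma), where 7.15% of all rows were called. At an unadjusted p under 0.05, where limma placed 33.6% of all rows, it also gave 0 of 6. A permutation test gave 1 at this level, but it was run on the 6 genes only. It has no share over all rows beside it, so nothing is read from that count. Ntrk2 averaged 1.24 in DINP 1.5 and 2.12 in DINP 15, a difference of 0.45 (95% interval -0.03 to 0.93, adjusted p = 0.175). Serpina12 averaged 23.7 and 18.4 (-0.39, interval -0.85 to 0.07, adjusted p = 0.233). Ccne2 (-0.36), Mmd2 (0.24), Atp2b2 (-0.22) and Fst (-0.18) had intervals that included 0. The interval of Fst, -0.75 to 0.40, leaves room for differences of the size of many called rows. Without the 7 mice high in stellate cell and fibroblast markers the differences of Ntrk2 (0.62, adjusted p = 0.0386) and Mmd2 (0.58, adjusted p = 0.0373) passed. Those mice were picked after the data were seen and by a measure that moves with both genes, so these p-values are descriptive.

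The comparisons of the lower doses with control share the control mice that helped to choose the genes. None of the 6 was called at 1.5 mg/kg bw/d, where 0.367% of rows were, and none in DINP 15, where 3.72% were (limma). At an unadjusted p under 0.05, limma gave 1 of 6 at the low dose, beside 12.3% of all rows, and 0 of 6 at the middle dose, beside 27% of all rows. The permutation tests gave 1 and 1 (Mmd2 both times). They were run on the 6 genes only, with no share over all rows, and nothing is read from these counts. By limma the gene was Mmd2, which averaged 2.6 ± 1.89 (SD, n = 13) in DINP 1.5 against 3.98 ± 1.33 (SD, n = 14) in control. Its difference was -0.59 (95% interval -1.01 to -0.16) with an adjusted p of 0.187 by limma. Without the 7 mice it was -0.91 with an adjusted p of 0.00765 (limma), which is the one value that changed its call. The 4 DINP 1.5 mice among the 7 held the 4 highest Mmd2 values of that group, 4.48 to 6.26. Leaving them out lowers the DINP 1.5 mean, so this p-value is descriptive too. Ntrk2 at 1.5 mg/kg bw/d differed by -0.46 (interval -0.93 to 0.01, adjusted p = 0.416), and at 15 mg/kg bw/d its mean, 2.12, was level with the 2.08 of control. Serpina12 was 0.28 above control at 1.5 mg/kg bw/d (adjusted p = 0.668, limma) and 0.11 below it at 15 (-0.11, adjusted p = 0.799). At 15 mg/kg bw/d Atp2b2 differed by -0.36 (interval -0.74 to 0.02), Ccne2 by -0.37 (interval -0.89 to 0.14) and Mmd2 by -0.35 (interval -0.77 to 0.08).

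**Figure D3:**
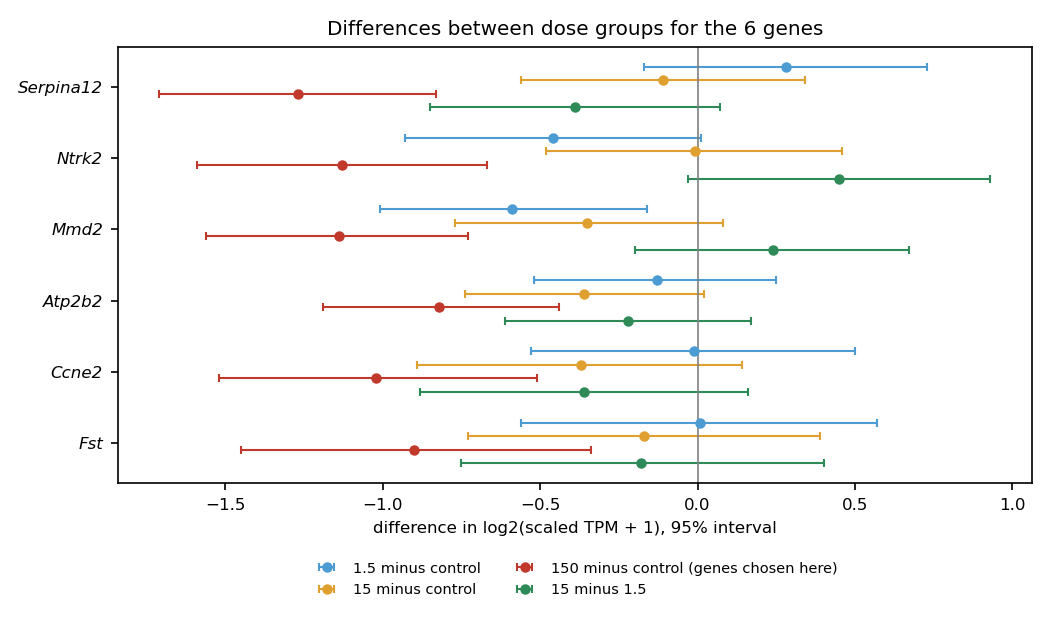
Differences in log2(scaled TPM + 1) with 95% intervals (horizontal axis) for each gene (vertical axis), from one limma fit of all 54 mice. The red points (150 mg/kg bw/d minus control) lie between -1.27 and -0.82 and chose the genes; of the other intervals only that of Mmd2 at 1.5 mg/kg bw/d, -1.01 to -0.16, leaves out 0.

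Within the groups the 6 genes were compared pair by pair. Each value was taken as the deviation from its group mean, so that the dose differences drop out, and all 15 pairs were correlated over the 54 mice. A single pair, 1 of 15, passed, Ntrk2 with Mmd2, with Pearson r = 0.74 and Spearman rho = 0.76. The permutation p adjusted over 15 pairs was 0.00015 for both, the smallest that 100000 shuffles within groups can give. The pair held in each group, with r = 0.83 in control, 0.80 in DINP 1.5, 0.88 in DINP 15 and 0.58 in DINP 150, and r was 0.70 without the 2 mice farthest from the median of Ntrk2. Among 11430 other rows Ntrk2 stood at place 3 in likeness to Mmd2, and Mmd2 stood at place 8 for Ntrk2.

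**Figure D4:**
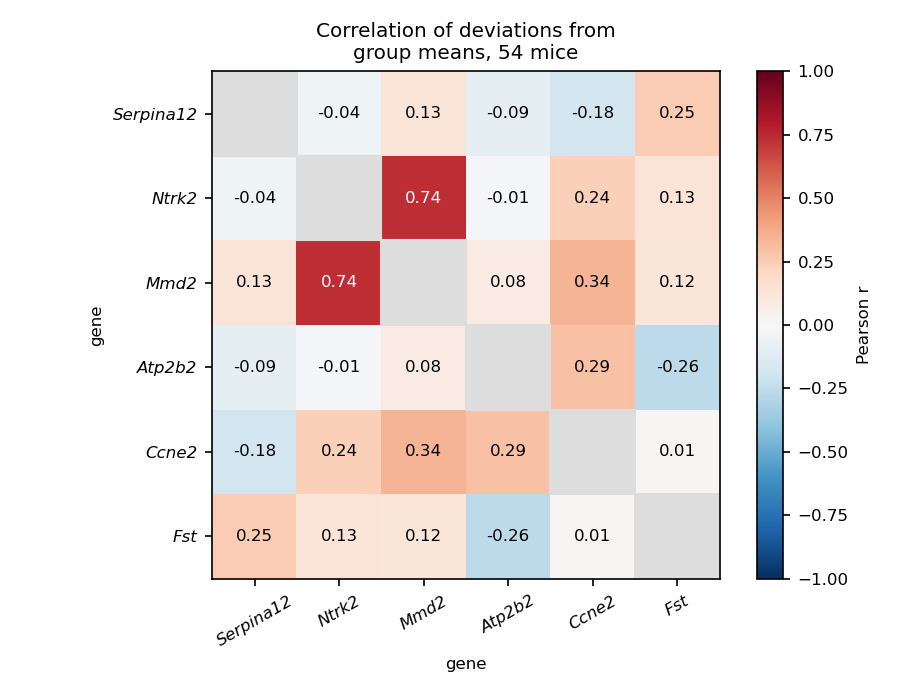
Pearson r between the 6 genes (both axes) over 54 mice, after subtracting group means; colour runs from -1 (blue) to 1 (red). The Ntrk2 and Mmd2 cell, 0.74, stands alone, and the other 14 pairs lie between -0.26 and 0.34.

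The other 14 pairs ran from r = -0.26 (Atp2b2 with Fst) to 0.34 (Mmd2 with Ccne2). Of all 15 pairs, 10 had r above 0, and the median was 0.12. The median r of each gene with all other tested rows lay between -0.01 and 0.01, and this contrast was not tested. Rounding to whole TPM is coarse for Ntrk2 and Atp2b2, so a pair that did not pass is not shown to be unrelated. Mmd2 with Ccne2 had a permutation p of 0.0151 and an adjusted p of 0.113 (rho = 0.27, adjusted p = 0.199, and r = 0.31 without the 2 mice farthest in Mmd2). Atp2b2 with Ccne2 had r = 0.29 (rho = 0.26, adjusted permutation p = 0.197). Serpina12 with Fst, the secreted pair, had r = 0.25 (rho = 0.33, adjusted permutation p = 0.197), with 0.70 in DINP 1.5, 0.41 in DINP 15, 0.10 in control and 0.08 in DINP 150. Serpina12 with Ntrk2 had r = -0.04, with -0.57 in control and 0.44 in DINP 150, and whether these 2 values differ was not tested.

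Ntrk2 and Mmd2 moved with the stellate cell and fibroblast markers and with library breadth. Over the 54 mice, within groups, the mean of the stellate cell and fibroblast markers had r = 0.71 with Ntrk2 and 0.68 with Mmd2, and the hepatocyte marker mean had r = -0.68 and -0.59. The number of rows above 0 per mouse had r = 0.58 and 0.47. The cholangiocyte marker mean had r = 0.50 and 0.46, that of Kupffer cells 0.40 and 0.38, and that of endothelial cells -0.14 and -0.16. For Fst the stellate r was 0.40, for Serpina12 and Ccne2 0.20 each, and for Atp2b2 -0.14. The part of these markers in the results was not tested beyond the values given here. After a linear fit on the stellate mean was taken out, Ntrk2 and Mmd2 kept r = 0.49, and after the number of rows above 0 was taken out, 0.65. Without the 7 mice high in these markers r was 0.64 (adjusted permutation p = 0.0003).

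At 150 mg/kg bw/d, where 0.84% of all rows were called, none of the 6 tested stellate cell and fibroblast markers was. All 6 had differences below 0, with a median of -0.331 beside -0.00809 over all rows. Their summed level overlapped between control (131 to 368) and DINP 150 (133 to 210). Leaving out the 7 mice moved the DINP 150 minus control difference of Ntrk2 from -1.13 to -0.92 and that of Mmd2 from -1.14 to -1.05. In a whole-liver sample fewer cells of a type and less RNA per cell cannot be told apart.

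The genes whose values followed each member most closely were taken as the 3 with the highest within-group r over the 54 mice. They were picked from 11430 other rows for each member, so a high r follows from the choice and was not tested. Genes that ran opposite to a member were not taken, though some r were larger in size. Examples are -0.82 for Ntrk2 with Cyp2d9 and -0.64 for Fst with Cpox. For Serpina12 these were Nsdhl (0.72), a sterol synthesis enzyme, Thrsp (0.72), a regulator of lipogenesis, and Fdps (0.71), the farnesyl diphosphate synthase. Without the 2 mice farthest in Serpina12 their r was 0.65, 0.57 and 0.69. None of the 3 was called at 150 mg/kg bw/d, where 0.84% of all rows were. Thrsp averaged 269 ± 217 (SD, n = 14) against 251 ± 121 in control (log2 difference -0.14, interval -0.91 to 0.63), and Fdps 73.4 against 74.1. Nsdhl differed by 0.23 (interval -0.21 to 0.67). Within groups Serpina12 thus ran with these 3, while its group mean was low at the dose where theirs were not called. The difference between these patterns was not tested.

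For Ntrk2 the 3 were Apoc2 (0.77), an apolipoprotein that activates lipoprotein lipase, Tmem176a (0.76), a membrane protein, and Gstm3 (0.76), a glutathione transferase. For Mmd2 they were Tceal8 (0.75), Ifi27l2b (0.75) and Ntrk2 itself (0.74). Rows with r above 0.4 made up 7.5% of all tested for Ntrk2 and 6.47% for Mmd2, against 0.717% to 1.46% for the other 4 genes. Fst was closest to Dcn (0.56), the matrix proteoglycan decorin, Dact2 (0.54) and Crtap (0.54), a collagen-modifying protein. Atp2b2 was closest to Acnat2 (0.61), an acyl-CoA amino acid transferase, Mlec (0.56) and Upf1 (0.55), a factor of nonsense-mediated decay. Ccne2 had the weakest neighbours, among them Apbb1ip (0.52) and Slc48a1 (0.51). None of the neighbours named here other than Ntrk2 was called at 150 mg/kg bw/d.

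**Figure D5:**
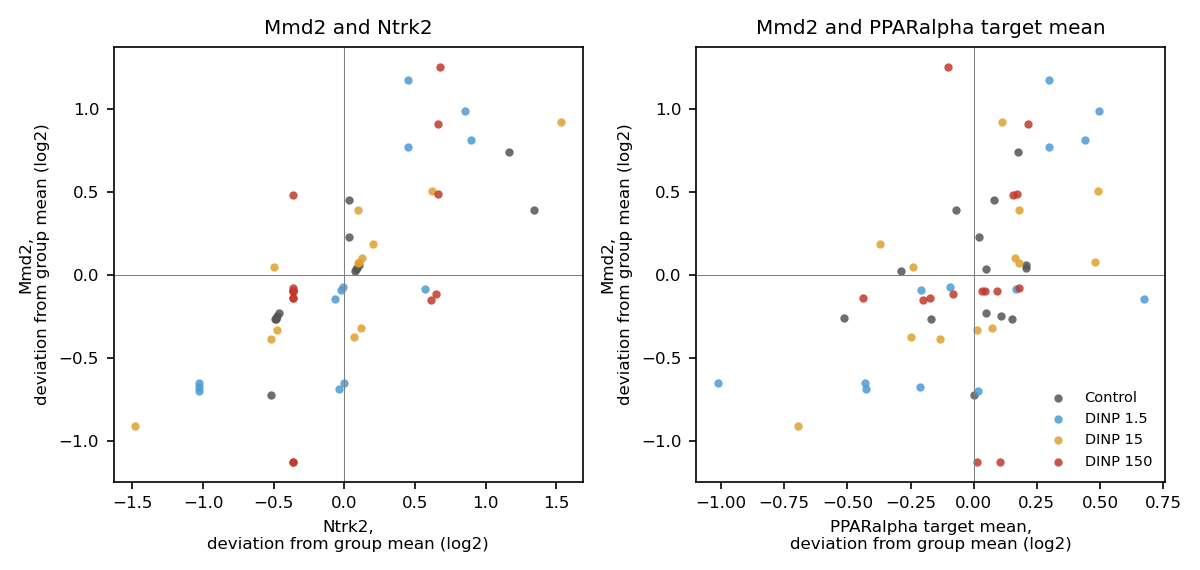
Deviations from group means on the log2 scale for Mmd2 (vertical axes) against Ntrk2 (left) and against the mean of 19 PPARalpha targets (right); points are the 54 mice, coloured by group. The left panel has r = 0.74 and the right panel r = 0.49, and repeated positions on the left come from whole-TPM rounding.

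PPARalpha, the nuclear receptor for fatty acids and peroxisome proliferators, switches on fatty acid oxidation genes of the liver. Of 19 tested targets 9 rose and none fell at 150 mg/kg bw/d, where 0.84% of all rows were called in either direction, with a median difference of 0.718 beside -0.00809 over all rows. Ehhadh, a peroxisomal oxidation enzyme, rose from 15.8 ± 4.99 to 47.5 ± 11.7 scaled TPM (SD, n = 14 each, log2 difference 1.54, adjusted p = 1.13e-13, limma). Angptl4 rose from 6.76 to 20.4 (1.47, adjusted p = 9.84e-09, limma) and Cyp4a31 from 3.1 to 12.3 (1.73, adjusted p = 4.97e-08, limma). Within groups only Mmd2, of 18 relations of the 6 genes to the target mean and to the clock genes Dbp and Bmal1, passed. Its r with the target mean was 0.49 (rho = 0.52, adjusted permutation p = 0.00864, r = 0.52 without the 2 farthest mice), with 0.69 in DINP 1.5, 0.61 in DINP 15, 0.26 in control and 0.12 in DINP 150. The relation was positive within groups, while at 150 mg/kg bw/d Mmd2 was low and the targets high. How these 2 patterns relate was not tested. Without the 7 mice high in stellate markers the r of Mmd2 with the target mean was 0.34 (adjusted permutation p = 0.113). After the stellate mean was taken out it was 0.30. Ntrk2 had r = 0.40 (rho = 0.35, adjusted permutation p = 0.0583). The 12 relations to Dbp and Bmal1, both of which swing over the day, lay between -0.22 and 0.22, and none passed.

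The partners of the 6 genes were read from lists of 5 to 21 tested genes. With 0.84% of all rows called at 150 mg/kg bw/d, 0.367% at 1.5 and 3.72% at 15, lists of this size would hold few called genes or none at the background share, so a count of 0 is not a result about a list. The lists below leave out the 6 genes themselves. In the activin and follistatin system, none of 13 tested genes was called at any dose against control. The activin subunits Inhba (3.44 ± 1.46 in control and 2.56 ± 1.07 in DINP 150, SD, n = 14 each), Inhbc (28.2 and 30) and Inhbe (12.6 and 14.8) had log2 differences of -0.31, 0.08 and 0.19 at the high dose. Between the lower doses 7.15% of all rows were called, and of the 13 genes 1 was called lower and 1 higher. Nothing is read from this count about the list. Inhba fell, from 4.22 in DINP 1.5 to 2.6 in DINP 15 (-0.55, adjusted p = 0.0337, limma), and this held under every scaling run. Inhbc rose from 27.6 to 39.2 (0.51, adjusted p = 0.0182, limma), and this call was lost under each other scaling. Fstl3, the nearest relative of follistatin, was listed at 0 in 11 of 14 control mice.

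Of 15 tested serpin clade A genes none was called at 150 mg/kg bw/d, and the median difference was -0.0419. Serpina11 averaged 31.7 in control and 30.3 in DINP 150. Serpina6, the corticosteroid-binding globulin, averaged 94.2 and 94.8, and rose to 134 ± 24.1 (SD, n = 13) in DINP 15 (0.50, adjusted p = 0.001, limma), a difference at the edge of the limit that fell to 0.45 or 0.46 under other scalings. Reads of the near-identical Serpina1 and Serpina3 copies may have been divided between them.

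No neurotrophin, receptor or adaptor was called at any dose among 8 tested, although with equal totals Frs3, an adaptor, was called lower at 15 mg/kg bw/d (0.986 in DINP 15 and 1.74 in control). Bdnf, the ligand of TrkB, averaged 1.65 in control and 1.55 in DINP 150, and Ntrk3, a related receptor, was listed at 0 in all 14 control mice. In the progestin and adipoQ receptor family none of 6 was called. Mmd, the closest relative of Mmd2, averaged 57.6 ± 6.89 (SD, n = 14) in control and 71.7 ± 8.34 (SD, n = 14) in DINP 150. Its difference of 0.31 had an adjusted p of 0.0164 (limma) but was below the limit of 0.5, and with samples rescaled to equal totals the adjusted p was 0.0663. Mmd2 and its relative thus lay on opposite sides of 0, though Mmd did not meet the call.

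Among calcium pumps and exchangers, none of 5 tested was called. Atp2b1, the plasma membrane pump with the highest level, averaged 52 ± 7.89 in control, 37.3 ± 7.05 in DINP 1.5, 49.5 ± 12.2 in DINP 15 and 40.9 ± 5.66 in DINP 150 (SD, n = 14, 13, 13 and 14). Its differences of -0.47 at 1.5 mg/kg bw/d (adjusted p = 0.00559, limma) and -0.34 at 150 mg/kg bw/d (adjusted p = 0.0393, limma) stayed under the limit of 0.5. Atp2b4 averaged 2.6 in control and 2.93 in DINP 150.

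Of 21 tested genes of cyclin E, CDK2 and their partners 1 rose and none fell at 150 mg/kg bw/d. It was E2f8, an atypical E2F repressor, which went from 0.834 ± 0.544 to 1.77 ± 0.754 (SD, n = 14 each, 0.61, adjusted p = 0.0343, limma). Under the other scalings the difference was 0.57 to 0.58 (adjusted p = 0.0447 to 0.0463, limma). At this level the rounding to whole TPM is coarse, as for Atp2b2. Cdk2, the kinase partner, averaged 5.12 and 5.21, and Ccne1 was listed at 0 in 6 of 14 control and 8 of 14 DINP 150 mice. At 15 mg/kg bw/d E2f2 fell from 2.46 to 1.39 (-0.59, adjusted p = 0.00334, limma).

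A last 3 lists were read beside the 6 genes. None of 14 insulin and FoxO1 responsive genes was called at 150 mg/kg bw/d. In DINP 15 Klf15, a fasting-related transcription factor, rose from 29.8 to 47.5 (0.66, adjusted p = 0.000302, limma). Of 14 clock genes none was called at 150 mg/kg bw/d, whereas at 15 mg/kg bw/d Per3 (4.17 to 7.32, 0.75, adjusted p = 0.00557, limma) and Dbp (54.2 to 90.4, 1.00, adjusted p = 0.0125, limma) rose, under every scaling run. Of 15 sex-biased growth hormone dependent genes 1 rose at 150 mg/kg bw/d, Cyp4a12a, a fatty acid hydroxylase (43.5 to 122, 1.60, adjusted p = 5.78e-05, limma), and none fell.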

How the data were processed

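Total RNA of 54 livers (14 control, 13 DINP 1.5, 13 DINP 15, 14 DINP 150) was made into QuantSeq 3′ libraries, and the authors processed the reads with STAR, RSEM and Salmon on GRCm38. The deposited table holds a signal per gene, made by the authors from TPM that were rounded, then scaled by a size factor of the sample: each value is a whole multiple of the smallest value above 0 of its sample (largest deviation 6.7e-05). These are not counts, depth is unknown, and no count test was run. Samples were grouped by the labels, which do not say whether replicates differ in more than the animal. Values were tested as log2(value + 1) with limma 3.58.1 (trend, R 4.3.3) in 1 fit of all mice and Benjamini-Hochberg adjustment over 11431 of 20162 rows with a mean of at least 1; a call needed an adjusted p below 0.05 and a difference beyond 0.5. The design used no replicate block.

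The 6 genes and the gene lists were chosen with earlier results of these data known, the genes on the 150 mg/kg bw/d difference, so that difference is given with no p, and calls of the 6 genes in it are a description. Named genes were the 6, the 3 rows with the highest within-group r for each, up to 3 called genes per list and dose, and the nearest paralogs; some genes that this rule names are not reported here. Rows with a repeated symbol were left out of lists. Correlations used deviations from group means, 2-sided permutation within groups (100000 shuffles) and adjustment over 15 or 18 relations. The fit and the correlations were tested on simulated data first. Markers of Kupffer cells, endothelial cells, cholangiocytes, lymphocytes, neutrophils, adipocytes and pancreas were also summed. None of these lists had a called gene at 150 mg/kg bw/d, where 0.84% of all rows were called. At 15 mg/kg bw/d, where 3.72% were, 1 was called lower for Kupffer cells (Csf1r) and 1 for endothelial cells (Pecam1). Alternatives were the pseudocount (0.1 and 5), the filter, the scaling, sample weights, robust moderation, the 2 groups alone, the replicate number as a block and each mouse left out; the whole TPM and the fit without 7 mice were added after the data were seen.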

Additional observations from a re-analysis of the deposited data

How the results depend on the processing

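The 150 mg/kg bw/d differences of the 6 genes kept their sign under every alternative run, from -2.94 (Ntrk2, pseudocount of 0.1) to -0.26 (Atp2b2, pseudocount of 5). How many of the 6 were called there follows from their choice and is a description only. It was 5; with a pseudocount of 5 it was 1 (Serpina12), and with a minimum mean of 5, which leaves only Serpina12 and Fst in the table, it was 1 of 2. Fst joined the calls with samples rescaled to equal totals (-0.99), whole TPM (-0.99), array quality weights (-0.92), the 2 groups alone (-0.90), and without control mouse 1 (-0.98), control mouse 4 or DINP 15 mouse 4 (-0.90). At 1.5 and 15 mg/kg bw/d and between them 0 of 6 were called under the alternatives run with limma, except without the 7 mice high in stellate markers: then 2 were called between DINP 15 and DINP 1.5 and 1 at 1.5 mg/kg bw/d. Those mice were picked after the data were seen, so these calls are descriptive. Differences near 0 changed sign. For DINP 1.5 against control these were Fst with a pseudocount of 5 (-0.00203), weights (-0.02), whole TPM (-0.01) and without the 7 mice (-0.12), and Serpina12 without the 7 (-0.03). For DINP 15 against control it was Ntrk2 with a pseudocount of 5 (0.00472) and without the 7 (0.07). With each mouse left out, Ccne2 at 1.5 mg/kg bw/d ran from -0.10 to 0.09 and Fst from -0.09 to 0.12, Ntrk2 at 15 mg/kg bw/d from -0.14 to 0.11 and Fst from -0.27 to 0.01, and Fst between DINP 15 and DINP 1.5 from -0.29 to 0.00134.

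Mice with the same replicate number did not deviate together: over 79 same-numbered pairs of different groups the deviations had a mean r of -0.0025 (-0.359 to 0.243, 12.7% above 0.1). With the replicate block 0 of 6 were called in the 3 comparisons without the high dose (at 150 mg/kg bw/d, which chose the genes, 5 of 6 as without it); Fst at 1.5 mg/kg bw/d became -0.01 and Ntrk2 at 15 mg/kg bw/d became 0.02.

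Of 15 pairs, 2 passed in place of 1 with a pseudocount of 0.1, equal totals or whole TPM (each adding Mmd2 with Ccne2, r = 0.54, 0.39 and 0.38) and among the DINP 1.5 and DINP 15 mice alone (adding Serpina12 with Fst, r = 0.53). Ntrk2 with Mmd2 passed throughout (0.61 to 0.81). Of 18 relations with the PPARalpha targets and clock genes 2 passed with whole TPM (adding Ntrk2, r = 0.50) and 0 without the 7 mice.

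Rows called over the whole table moved more. The 42 at 1.5 mg/kg bw/d became 23 with a pseudocount of 5, 22 without the filter, 27 with the block, 70 with weights, 79 with the 2 groups alone and 146 without the 7 mice, and 22 to 27 without control mouse 1 (24) or 12 (27) or DINP 1.5 mouse 5 (24), 8 (22) or 12 (27). The 425 at 15 mg/kg bw/d became 190 (pseudocount of 5) and 218 (weights), the 817 between the lower doses 441 and 414, and the 96 at 150 mg/kg bw/d 48 with a pseudocount of 5. The split at 150 mg/kg bw/d was 74 higher and 22 lower, but 48 and 71 with equal totals and 48 and 75 with whole TPM; at 15 mg/kg bw/d it went from 212 and 213 to 150 and 314 with equal totals, and between the lower doses from 428 and 389 to 322 and 539. The median difference over all rows at 150 mg/kg bw/d was -0.00809 in the main fit, -0.0858 with equal totals and -0.0873 with whole TPM. The causes were not tested. Rounding to whole TPM limits Ntrk2 and Atp2b2 most.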
